A study of Homo sapiens with 6 samples.

Results

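The genes described are 8 of the 33706 in the deposited table, chosen by symbol: the telomerase reverse transcriptase TERT, the dyskerin gene DKC1, its partners NHP2, NOP10 and GAR1, the assembly factor NAF1, the Cajal body protein gene WRAP53 and the telomerase-associated protein gene TEP1. They were measured by RNA sequencing in ES2, a human ovarian cancer cell line, grown for 7 days, with 1 library in each of 6 groups. The groups are R (described as given R), TR, GR, T (given T), G (given G4) and Control (no drug). The study concerns T-oligos, short DNAs modelled on the telomere end, and RHPS4, a ligand of G-quadruplex DNA. T and R are kept as letters because no label expands them, and TR and GR are read as combinations of R with T and with G. T and G are both called oligos below, which is likewise a reading. All 6 cultures are labelled wild type, and the labels do not say that they were set up separately from one another. The titles all give ES2, whereas the source names of R, TR, GR and G give SKOV3, another ovarian cancer line.

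Telomerase is a reverse transcriptase that lengthens chromosome ends by copying a template in its own RNA subunit, TERC. TERT is the catalytic protein and is silent in most adult cells but active in most cancers. TERC carries an H/ACA motif, shared with the small RNAs that guide pseudouridylation of ribosomal RNA, and is bound and stabilised by dyskerin, NHP2, NOP10 and GAR1. NAF1 holds the place of GAR1 during assembly and is then exchanged for it. WRAP53 encodes the protein TCAB1, which brings the finished particle to Cajal bodies, and TEP1 binds both telomerase RNA and the RNA of vault particles.

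Library totals ran from 73213048 to 83976498 counts. Mitochondrially encoded genes took 292321 to 749937 of these counts in the libraries with R and 3983032 to 5644257 in those without, so a scaling without them was among the alternatives. In bulk RNA, fewer cells of a type and less RNA per cell cannot be told apart. Of the epithelial markers, KRT8 (15.2 to 38.9 FPKM) and KRT18 (62.9 to 249 FPKM) were present, while KRT19, EPCAM and CDH1 reached at most 0.110 FPKM. The summed FPKM of the 5 was 148.8 in R, 220.7 in TR and 282 in GR, against 78.5 in T, 143 in G and 105 in Control, and its part in the results below was not tested. Of the mesenchymal markers, VIM stood at 1919, 1516 and 1053 FPKM in R, TR and GR, against 1504, 929 and 1456 FPKM in T, G and Control. FN1 stood at 248, 267 and 317 FPKM in R, TR and GR, against 124, 276 and 99.1 FPKM in T, G and Control, and CDH2 ranged from 11.1 FPKM in Control to 23.1 FPKM in GR. None of the 3 was called for R by edgeR (adjusted p = 0.0609 to 0.162), and their part in the results below was not tested. The leukocyte markers PTPRC and CD14 summed to at most 0.194 FPKM, and PECAM1, an endothelial marker, reached 0.113 FPKM, while CDH5, the other endothelial marker, stood at 5.75 to 19.2 FPKM. The ovarian markers PAX8 and WT1 reached at most 0.198 and 0.252 FPKM, both in Control. ERBB2, which is amplified in SKOV3 cells, reached 0.721 FPKM at most and was highest in GR and lowest in TR, which share a source name. CDKN2A, the other gene set to check the line, ranged from 74.4 FPKM in G to 146 FPKM in TR. The identity of the line was not tested.

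The promoters of 7 of the 8 genes are in the RefSeq table used (GRCh38.p14, 250 bases before to 50 after the start). The 3 shown are those of the catalytic gene and of the core genes with the widest ranges, and each holds a G-quadruplex motif, here 4 runs of at least 3 G separated by 1 to 7 bases on either strand. In all 3 the motif lies on the strand opposite to the gene, so that it appears as runs of C, in capitals. TERT is at chr5:1295019-1295318 on the minus strand, DKC1 at chrX:154762614-154762913 on the plus strand and NHP2 at chr5:178153836-178154135 on the minus strand, each printed 5′ to 3′ along the gene.
TERT: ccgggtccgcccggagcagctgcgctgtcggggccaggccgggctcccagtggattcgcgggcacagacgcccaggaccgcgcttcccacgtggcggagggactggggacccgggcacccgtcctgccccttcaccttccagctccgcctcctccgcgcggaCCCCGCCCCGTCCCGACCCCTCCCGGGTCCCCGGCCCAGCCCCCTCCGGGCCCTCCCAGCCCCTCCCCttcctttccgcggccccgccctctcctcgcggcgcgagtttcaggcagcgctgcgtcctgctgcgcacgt
DKC1: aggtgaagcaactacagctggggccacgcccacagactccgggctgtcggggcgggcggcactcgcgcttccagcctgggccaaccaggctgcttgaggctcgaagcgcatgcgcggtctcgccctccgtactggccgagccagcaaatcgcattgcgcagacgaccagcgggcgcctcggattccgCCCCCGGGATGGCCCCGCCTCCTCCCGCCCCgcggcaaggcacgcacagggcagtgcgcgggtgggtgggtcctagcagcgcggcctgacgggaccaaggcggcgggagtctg
NHP2: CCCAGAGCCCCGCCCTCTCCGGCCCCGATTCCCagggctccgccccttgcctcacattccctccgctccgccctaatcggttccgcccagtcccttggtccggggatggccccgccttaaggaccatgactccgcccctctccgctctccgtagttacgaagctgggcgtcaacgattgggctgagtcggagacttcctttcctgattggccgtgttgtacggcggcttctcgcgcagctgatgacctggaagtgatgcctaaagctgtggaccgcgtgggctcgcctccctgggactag

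The motif was found in 25% of the 35116 promoters of the table and in no window of NOP10, GAR1, WRAP53 or TEP1. The letters CACGTG, which read the same on both strands and to which MYC and its partners can bind, were in the TERT and NOP10 windows and in 1 of the 2 GAR1 windows, against 7.26% of all promoters. The telomere repeat unit TTAGGG, on either strand, was in the NHP2 window, 1 GAR1 window and 1 of the 3 WRAP53 windows, against 9.05% of all promoters. These matches describe the letters of the windows. Of the 3 genes shown with the G-quadruplex motif, TERT and DKC1 lay lower and NHP2 higher in FPKM in the libraries with R. Of those without it, GAR1 lay lower too, and NOP10, WRAP53 and TEP1 overlapped between libraries with and without R. Any part of the motif in these levels was not tested.

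Levels are given as the authors' FPKM, fragments per kilobase scaled to library depth. TERT (ENSG00000164362, chromosome 5, 1253147 to 1295047, minus strand) was the lowest of the 8 genes in every library. It stood at 0.406 FPKM in R, 0.601 FPKM in TR and 0.509 FPKM in GR, against 1.10 FPKM in T, 1.27 FPKM in G and 0.899 FPKM in Control. The counts behind these values were 216, 303 and 271 reads in R, TR and GR, against 508, 634 and 460 reads in T, G and Control. Every library with R was below every library without it, and no 95% exact Poisson interval, which covers counting error only, reached across: the highest upper bound with R was 0.672 FPKM, in TR, and the lowest bound without R was 0.819 FPKM, in Control. Only T and G reached 1 FPKM, so TERT passed the filter on low values through those 2 libraries.

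DKC1 (ENSG00000130826, chromosome X, 154762742 to 154777689, plus strand), the pseudouridine synthase of the H/ACA particle, stood at 8.53, 8.15 and 10.0 FPKM in R, TR and GR, against 16.7, 11.4 and 12.9 FPKM in T, G and Control. The 2 sets did not overlap, and T was the highest library and TR the lowest. With TMM or median-ratio scaling in place of the deposited FPKM the 2 sets overlapped. The snoRNA genes SNORA56 and SNORA36A and the microRNA gene MIR664B lie within DKC1 on the same strand and had at most 1 count in any library.

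NHP2 (ENSG00000145912, chromosome 5, 178149463 to 178153894, minus strand), which binds the upper stem of H/ACA RNAs, was the most abundant of the 8 genes in each library. It stood at 80.3, 80.5 and 61.7 FPKM in R, TR and GR, against 42.9, 46.8 and 58.9 FPKM in T, G and Control. All 3 libraries with R were above all 3 without it, although GR exceeded Control by little, and the sets overlapped under TMM scaling, under median-ratio scaling and with mitochondrial genes left out of the total. NHP2 overlaps RMND5B on the opposite strand by 1106 bases. RMND5B had 938, 1272 and 2176 counts in R, TR and GR, against 1390, 2139 and 1865 counts in T, G and Control. No source used here says whether counting used strand, so reads of the overlap cannot be assigned with certainty.

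NOP10 (ENSG00000182117, chromosome 15, 34339159 to 34343180, minus strand), the smallest core protein, varied least. It stood at 22.3, 22.1 and 21.9 FPKM in R, TR and GR, against 18.4, 19.2 and 23.8 FPKM in T, G and Control. The libraries with R lay inside the range of those without it. The highest library, Control, exceeded the lowest, T, by 1.29 times, the narrowest span of the 8 genes.

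GAR1 (ENSG00000109534, chromosome 4, 109815510 to 109824740, plus strand), the core protein that joins last, stood at 4.07, 4.0 and 5.03 FPKM in R, TR and GR, against 7.39, 6.51 and 7.39 FPKM in T, G and Control. NAF1 (ENSG00000145414, chromosome 4, 163110073 to 163166890, minus strand), which precedes GAR1 on the particle, stood at 1.4, 1.13 and 2.34 FPKM in R, TR and GR, against 3.29, 3.12 and 2.66 FPKM in T, G and Control. For both genes every library with R was below every library without it, also under the other 3 scalings. GR was the highest of those with R in FPKM, for GAR1 not under TMM or median-ratio scaling.

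WRAP53 (ENSG00000141499, chromosome 17, 7686071 to 7703502, plus strand) stood apart in its pattern. It stood at 2.02, 2.59 and 4.0 FPKM in R, TR and GR, against 2.25, 3.25 and 5.08 FPKM in T, G and Control. Control was the highest library and all 5 treated libraries were below it, while the libraries with and without R overlapped.

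TEP1 (ENSG00000129566, chromosome 14, 20365667 to 20413501, minus strand) stood at 1.60, 1.30 and 2.34 FPKM in R, TR and GR, against 2.33, 2.75 and 2.43 FPKM in T, G and Control. R and TR were below the other 4 libraries, and GR lay just above T.

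**Figure D1:**
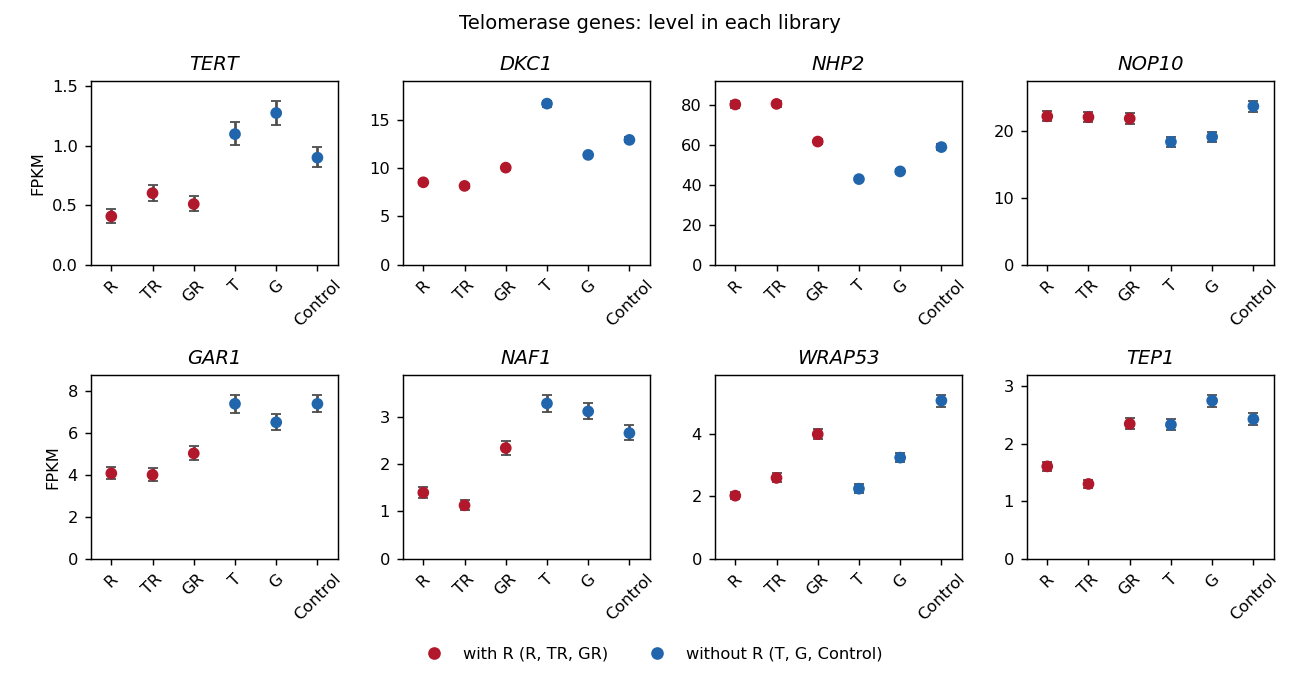
Level of each of the 8 genes (vertical axes, FPKM, each starting at 0) in the 6 libraries (horizontal axes), with R in red and without R in blue; bars are 95% exact Poisson intervals and cover counting error only. TERT, GAR1 and NAF1 lie lower in all libraries with R, NHP2 lies higher, and WRAP53 is highest in Control at 5.08 FPKM.

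The order of the median levels over the 6 libraries was NHP2 at 60.3 FPKM, NOP10 at 22.0, DKC1 at 10.7, GAR1 at 5.77, WRAP53 at 2.92, NAF1 at 2.50, TEP1 at 2.34 and TERT at 0.750 FPKM. The ranges over the libraries overlapped between the neighbours GAR1 and WRAP53, WRAP53 and NAF1, and NAF1 and TEP1, and between no other neighbours in this order. The length by which the deposited FPKM divides, recovered from counts and totals, was 9811 bases for DKC1, while its principal transcript in GENCODE v29 has 2577 bases. Per kilobase of principal transcript, with the depth scaling of FPKM kept, the order kept NHP2 (109.5), NOP10 (66.8) and DKC1 (40.7) on top and placed NAF1 (6.68) above WRAP53 (4.68), an alternative chosen after the data were seen. TERT remained last, at 1.18 on that scale. Levels relative to one another therefore depend on the length used, and plain FPKM ratios between libraries hardly do. Ratios of FPKM + 1 and the filter at 1 FPKM, both used below, do depend on it. TERT in Control, for example, was at 0.899 FPKM but at 1.42 per kilobase of principal transcript.

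The balance among the 4 H/ACA core genes differed with R. NHP2 made up 69.7%, 70.1% and 62.5% of the summed FPKM of the 4 genes in R, TR and GR, against 50.2%, 55.8% and 57.2% in T, G and Control. DKC1 made up 7.41%, 7.10% and 10.2% in R, TR and GR, against 19.5%, 13.6% and 12.5% in T, G and Control. GAR1 made up 3.54%, 3.48% and 5.09% in R, TR and GR, against 8.66%, 7.77% and 7.18% in T, G and Control. These shares are ratios within a library and do not change with its scaling. They do depend on the length used for each gene, and no trend in GC content or length was removed from them. NOP10 made up 19.3%, 19.3% and 22.2% in R, TR and GR, against 21.6%, 22.9% and 23.1% in T, G and Control. The libraries with R and without R did not overlap in the shares of NHP2, DKC1 and GAR1, and overlapped in that of NOP10. The shares are parts of the same sum, so a higher share of NHP2 lowers the others and they are not separate results. No rate over all genes was computed for shares or for ratios between genes. In FPKM itself, 18.7% of the 13259 genes reaching 1 FPKM in a library lay lower in all libraries with R and 13.5% higher.

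The ratio of NHP2 to DKC1, in FPKM, was 9.41, 9.88 and 6.14 in R, TR and GR, against 2.58, 4.12 and 4.56 in T, G and Control. The ratio of GAR1 to DKC1 was 0.478, 0.490 and 0.50 in R, TR and GR, against 0.444, 0.573 and 0.573 in T, G and Control, so that the sets overlapped. The ratio of NAF1 to GAR1 was 0.343, 0.282 and 0.466 in R, TR and GR, against 0.445, 0.479 and 0.360 in T, G and Control, again with overlap. The ratio of TERT to DKC1 was 0.0477, 0.0737 and 0.0507 in R, TR and GR, against 0.0658, 0.112 and 0.0696 in T, G and Control, with TR inside the range without R. With 3 libraries against 3 the smallest two-sided p of an exact permutation test is 0.10, so none was run on these ratios.

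**Figure D2:**
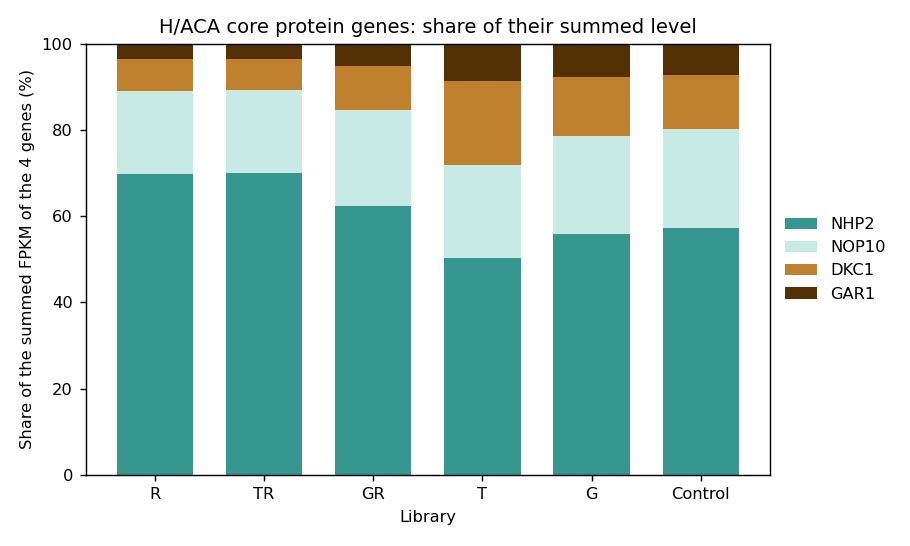
Share of each H/ACA core gene in the summed FPKM of the 4 (vertical axis, percent) in each library (horizontal axis). NHP2 takes 62.5% to 70.1% in the libraries with R and 50.2% to 57.2% in those without.

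To ask what differed with R whether an oligo was given or not, 3 pairs that share no library were compared: R/Control, TR/T and GR/G. Differences are log2 ratios of FPKM + 1, and the added 1 shrinks those of low genes such as TERT. TERT was at -0.43, -0.39 and -0.59 in the 3 pairs, in that order. Without the added 1 its log2 ratios were -1.15, -0.87 and -1.32, or -1.11 ± 0.23 (SD, n = 3 pairs). GR against G, the only R pair within 1 source name, gave the lowest of the 3 for TERT.

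NAF1 had log2 ratios of FPKM + 1 of -0.61, -1.01 and -0.30 in these pairs, in the same order. GAR1 had -0.73, -0.75 and -0.32, DKC1 -0.55, -0.95 and -0.16, and TEP1 -0.40, -0.53 and -0.16. For these 4 genes GR against G was the smallest of the 3 differences. NHP2 had 0.44, 0.89 and 0.39. TERT, DKC1, GAR1, NAF1 and TEP1 were thus lower in all 3 pairs, as were 34.9% of the 13259 genes with at least 1 FPKM in a library, and NHP2 was higher in all 3, as were 22.4% of those genes. TERT, DKC1, GAR1 and NAF1 were the genes whose libraries with R were all below those without, a pattern that 18.7% of the genes share, and NHP2 shared the reverse pattern with 13.5%. TERT is among the 13259 genes only because T and G, libraries without R, reached 1 FPKM. Entry by that route favours a gene that is lower with R, so its place in these counts is no support.

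NOP10 had log2 ratios of -0.09, 0.25 and 0.18 in R/Control, TR/T and GR/G, and WRAP53 had -1.01, 0.15 and 0.24. Both differed in sign between the pairs, but with median-ratio scaling NOP10 was above 0 in all 3 (0.12, 0.53 and 0.26). At least 2-fold differences in FPKM + 1 were few. WRAP53 was past 2-fold in R against Control, where 6.61% of genes were at least 2-fold lower and 9.29% differed in either direction, and NAF1 in TR against T, where 11.2% were lower and 16.9% differed. Neither held under every scaling: WRAP53 was at -0.86 with median-ratio scaling and -0.91 with a trend in GC content and length removed, and NAF1 at -0.82 and -0.86. In TR against T the gene past 2-fold was then NHP2 (1.18) with median-ratio scaling and DKC1 (-1.05) with the trend removed. None of the 8 genes was past 2-fold in FPKM + 1 in GR against G, where 3.38% of genes were in either direction. Without the added 1, TERT was also past 2-fold in R against Control (-1.15) and GR against G (-1.32), and DKC1 in TR against T (-1.03). No share of all genes is given without the added 1, so these cannot be set against one. The median log2 ratio of FPKM + 1 of the 8 genes was -0.49, -0.46 and -0.16 in the 3 pairs, beside -0.13, -0.17 and -0.01 for all genes.

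**Figure D3:**
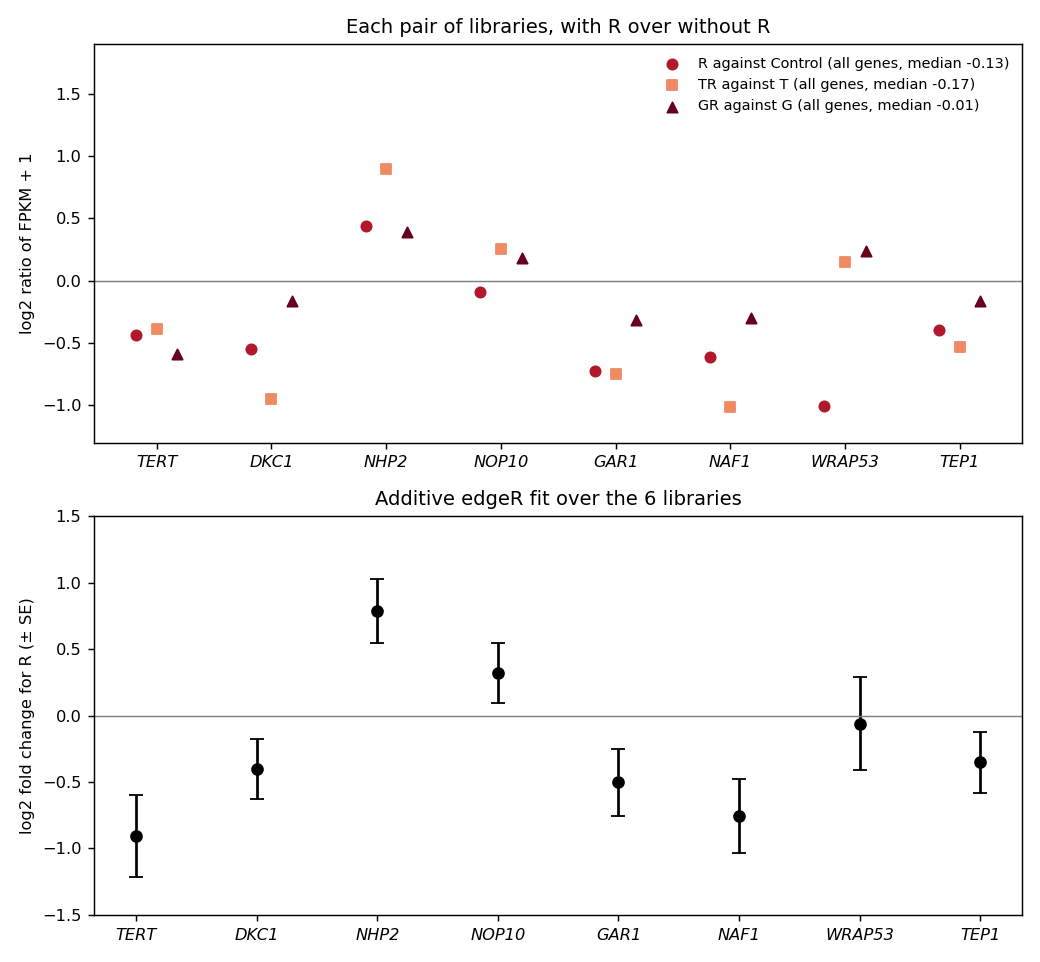
Upper panel: log2 ratio of FPKM + 1 of each gene in R/Control, TR/T and GR/G (vertical axis). Lower panel: log2 fold change for R with its SE in the additive edgeR fit; TERT lies at -0.91 and NHP2 at 0.79, and no gene has an adjusted p under 0.05.

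In the additive edgeR quasi-likelihood fit of oligo and R to the counts of all 6 libraries, 0 of the 8 genes were called for R at an adjusted p under 0.05, where 2.5% of the 20922 genes tested were (1.19% higher and 1.31% lower). NHP2 had a log2 fold change of 0.79 (SE 0.24, edgeR adjusted p = 0.0895). TERT had -0.91 (SE 0.31, edgeR adjusted p = 0.111) and NAF1 -0.76 (SE 0.28, edgeR adjusted p = 0.130). These were the 3 genes with an unadjusted p under 0.05, as had 27.2% of all genes tested.

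The other 5 genes were nearer to 0 in that fit. GAR1 had a log2 fold change of -0.50 (SE 0.25), DKC1 -0.40 (SE 0.22), TEP1 -0.35 (SE 0.23), NOP10 0.32 (SE 0.23) and WRAP53 -0.06 (SE 0.35), with edgeR adjusted p-values from 0.233 to 0.936. DKC1 was at -0.24 without T or TR and -0.10 with the source-name line as a term, and NOP10 at 0.19 without T or TR. The median of the 8 was -0.38, beside -0.06 for all genes. DESeq2 with the same design called 2 of the 8, NHP2 (0.78, adjusted p = 0.0186) and TERT (-0.91, adjusted p = 0.0438), where it called 17.8% of the genes. The fit has 2 residual degrees of freedom. Its p-values set each fold change against the departure of these libraries from additivity, with information on that spread shared across genes. They do not set it against a spread between replicates, and the departure may be technical.

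The ratios also followed transcript composition, in some pairs more than in others. Across the 97.1% of those 13259 genes that have a GC value, the log2 ratio had a Spearman correlation with GC content of 0.03 in R/Control, 0.449 in TR/T and 0.471 in GR/G, and with transcript length of -0.22, -0.25 and -0.11. For the oligos the correlation with GC content was -0.30 in T against Control, 0.605 in TR against R, -0.32 in G against Control and 0.11 in GR against R. With a trend in both removed, NHP2, a short gene, had log2 ratios of 0.21, 0.42 and 0.24 in these pairs, each nearer to 0 than its ratio before. TERT, at 65.6% GC, then had -0.27, -0.70 and -0.85. Both kept their direction, and WRAP53 in TR against T lay at -0.13 in place of 0.15.

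T was compared in the absence of R (T against Control) and in its presence (TR against R). WRAP53 had the largest ratio of the 8, -0.90 in T against Control, at 2.25 FPKM in T and 5.08 FPKM in Control, and 0.25 in TR against R. DKC1 had 0.34 and -0.06, NHP2 -0.45 and 0.01, NOP10 -0.35 and -0.01, and NAF1 0.23 and -0.17 in T against Control and TR against R. TERT was above 0 in both, at 0.14 and 0.19, and lay at 0.27 and -0.13 with the GC and length trend removed. GAR1 was at 0.00 and -0.02.

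In FPKM + 1, none of the 8 was at least 2-fold different in T against Control, where 4.7% of genes were, or in TR against R, where 0.845% were. Without the added 1, the log2 ratio of WRAP53 in T against Control was -1.18, and no share of all genes is given on that measure. The fit called 0 of the 8 for T, where 0.00478% of the genes tested were called, and none had an unadjusted p under 0.05, as had 3.67% of all genes. The largest fold change for T among the 8 was that of WRAP53 (edgeR log2 fold change -0.59, SE 0.43). The S phase genes differed strongly in T, with 8 of 12 at least 2-fold lower in T against Control and a median of -1.32, but 0 of 12 were past 2-fold in TR against R, with a median of 0.07. The part of this in the ratios above was not tested.

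G was compared in the same way. NHP2 was lower in both backgrounds, at -0.33 in G against Control and -0.37 in GR against R, and NAF1 was at 0.17 and 0.48, or 0.0046 and 0.25 with median-ratio scaling. TERT was at 0.26 and 0.10, TEP1 at 0.13 and 0.36, and NOP10 at -0.30 and -0.02. TEP1 was at -0.03 in G against Control with median-ratio scaling and at -0.02 in GR against R with the GC and length trend removed, where NOP10 was at 0.29 (-0.37 with median-ratio scaling). DKC1, GAR1 and WRAP53 differed in sign between the backgrounds, at -0.17, -0.16 and -0.52 in G against Control and at 0.21, 0.25 and 0.73 in GR against R. The median of all genes in GR against R was 0.22 and, with median-ratio scaling, -0.04. With that scaling DKC1 and GAR1 were at -0.11 and -0.05 there and TERT at -0.01. With the GC and length trend removed TERT was at -0.22 in GR against R.

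None of the 8 was at least 2-fold different in G against Control, where 3.73% of genes were, or in GR against R, where 7.3% were. The fit called 0 of the 8 for G, where 0.0335% of the genes tested were called, and 0 had an unadjusted p under 0.05, as had 11.9% of all genes. NHP2 came nearest (edgeR, log2 fold change -0.63, SE 0.29, unadjusted p = 0.0591, adjusted p = 0.428).

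**Figure D4:**
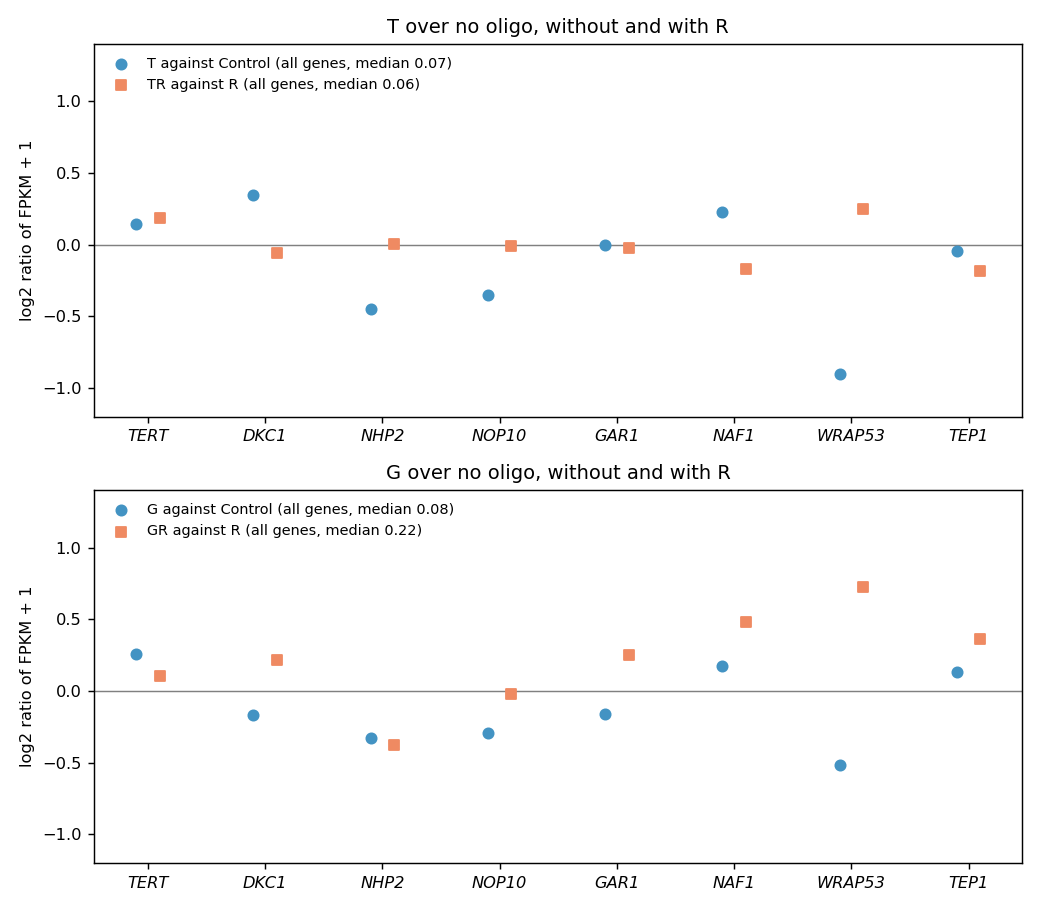
Log2 ratio of FPKM + 1 (vertical axes) of each gene for T (upper panel) and G (lower panel), without R in blue and with R in orange. WRAP53 lies at -0.90 and -0.52 without R and at 0.25 and 0.73 with R.

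The combinations were also set against Control. In TR against Control, NAF1, WRAP53 and GAR1 had the lowest ratios, -0.78, -0.76 and -0.75, and NHP2 the highest, 0.44. None was past 2-fold in FPKM + 1, where 7.31% of genes were. NAF1 was at -1.24 without the added 1, a measure for which no share of all genes is given. In GR against Control, GAR1 had -0.48, DKC1 -0.33, TERT -0.33 and NHP2 0.07 (-0.07 with median-ratio scaling), again with none past 2-fold, where 4.65% were. These comparisons share the Control library with R, T and G against Control.

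Genes around telomerase were taken from 5 lists drawn up by function. Of the telomerase RNA and its processing factors, 1 of 9 tested was called lower for R by edgeR and 0 higher, with a median log2 fold change of -0.42, where 1.31% of all genes were called lower and 1.19% higher. That gene was TGS1, which trimethylates the cap of telomerase RNA, at 0.989, 1.56 and 4.77 FPKM in R, TR and GR, against 9.70, 8.23 and 7.50 FPKM in T, G and Control (edgeR log2 fold change -1.92, SE 0.39, adjusted p = 0.0485). In this list 4 genes had an unadjusted p under 0.05, as had 27.2% of all genes, and DESeq2 called 3, as it did 17.8% of all genes. The same shares over all genes apply to the lists that follow. TGS1 lost its call without the libraries Control (adjusted p = 0.116), R (0.0844), T (0.187) and TR (0.186), without mitochondrial genes (0.0508), with no filter on low counts (0.208) and with the source-name line as a term (1). ZCCHC8, a subunit of the nuclear exosome targeting complex, had -1.13 (SE 0.31) and TOE1, a deadenylase that trims telomerase RNA, -1.03 (SE 0.33). Neither was called by edgeR (adjusted p = 0.0719 and 0.101), and both were by DESeq2 (adjusted p = 0.00438 and 0.0173). TERC itself, which lacks a long poly(A) tail and is therefore poorly caught by oligo(dT) beads, had 3 counts in GR, 5 counts in Control and 0 in the other 4 libraries, so no difference could be detected at this depth.

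Of the 4 box C/D proteins, the counterparts that form the methylation-guiding particle, 1 was called lower and 0 higher, with a median of -0.14. NOP58, a core scaffold of that particle, stood at 9.67, 8.59 and 16.4 FPKM in R, TR and GR, against 30.3, 31.5 and 24.1 FPKM in T, G and Control (edgeR log2 fold change -1.16, SE 0.23, adjusted p = 0.0463). It lost its call without the libraries Control (adjusted p = 0.0976), R (0.0717), T (0.178) and TR (0.178), with no filter on low counts (0.208) and with the source-name line as a term (1). NOP56, its partner, had -0.64 (SE 0.24), while SNU13, which binds the RNA first, had 0.44 (SE 0.24).

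Of the 18 assembly chaperones, among them the RUVBL helicases, HSP90 and the CCT chaperonin that folds TCAB1, 0 were called in either direction and 1 had an unadjusted p under 0.05. Their median was 0.21, with RPAP3 at -0.59 (SE 0.26), RUVBL2 at 0.55 (SE 0.31) and CCT7 at 0.48 (SE 0.22). DESeq2 also called 0 of them. Of 17 transcriptional regulators of TERT 0 were called by edgeR, 5 had an unadjusted p under 0.05, and DESeq2 called 4. Their median was 0.37. The MYC antagonist MXD3 had 1.70 (SE 0.37, edgeR adjusted p = 0.0530), at 5.35, 5.28 and 4.98 FPKM in R, TR and GR, against 0.912, 2.40 and 2.70 FPKM in T, G and Control. MYC itself had 0.75 (SE 0.23, edgeR adjusted p = 0.0952), at 94.6, 107 and 54.2 FPKM in R, TR and GR, against 62.5, 47.5 and 59.9 FPKM in T, G and Control. The part of either gene in the level of TERT was not tested. ETS2 had 0.95 (SE 0.25) and USF2 0.84 (SE 0.22). Of the 12 S phase genes 0 were called by edgeR, 1 had an unadjusted p under 0.05, and DESeq2 called 1, with a median of -0.05. The largest in size were TK1 (1.27, SE 0.61), RRM2 (1.13, SE 0.55) and TYMS (1.04, SE 0.64). Their ratios in R/Control, TR/T and GR/G were 0.13, 3.01 and 0.16 for TK1, 0.24, 2.42 and -0.03 for RRM2, and -0.20, 2.99 and -0.02 for TYMS, so that TR/T, whose T library was low, stood apart. The list median in these pairs was -0.75, 0.49 and -0.38.

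**Figure D5:**
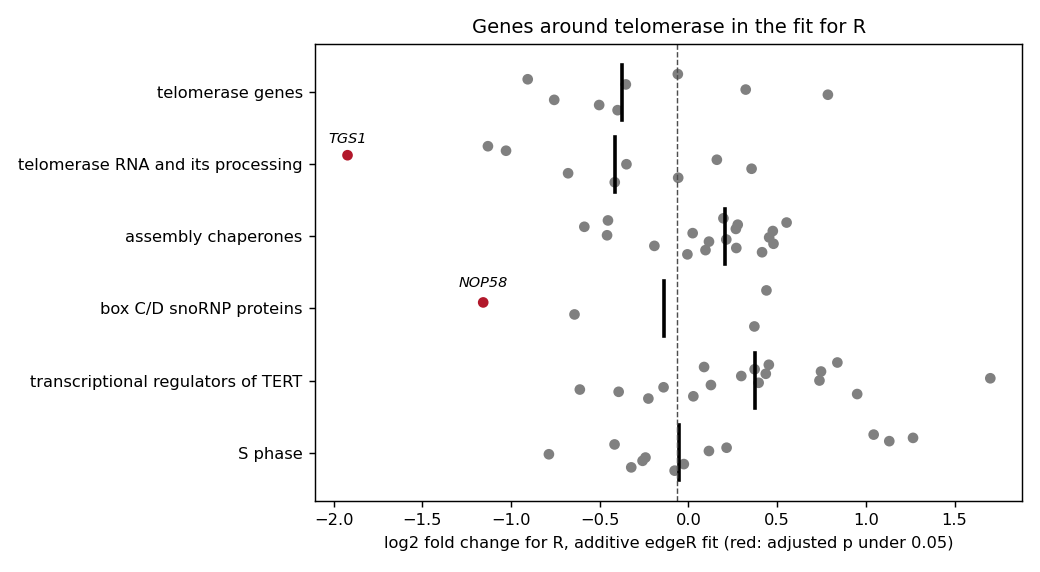
Log2 fold change for R in the additive edgeR fit (horizontal axis) of the tested genes of each list (vertical axis); black bars are list medians and the dashed line is the median of all genes, -0.06. TGS1 at -1.92 and NOP58 at -1.16 are the genes called, in red.

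Among themselves, over the 6 libraries, log2(FPKM + 1) of NAF1 correlated with that of TEP1 at r = 0.949 and of GAR1 with DKC1 at r = 0.931. NHP2 ran against NAF1 (r = -0.961), DKC1 (r = -0.887) and TERT (r = -0.874). WRAP53 correlated with no other member beyond 0.543. These values describe 6 points that share depth, composition and scaling within a library.

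The genes most like each member over the 6 libraries, by Pearson correlation of log2(FPKM + 1) among 7533 genes with at least 5 FPKM in a library, follow as a description. For TERT they were RFX8 (r = 0.977), COL6A3 (0.968) and ACAD10 (0.967). For DKC1 they were DTD2 (r = 0.992), LENG9 and DCAF4 (0.991 each), and for GAR1 MRS2 (0.997), VMA21 (0.995) and ORC2 (0.994). For NHP2 they were COTL1 (r = 0.998), RHOC (0.997) and TRMT112 (0.996), and for NOP10 MED16 (0.993), CCT3 and OAZ2 (0.991 each). For NAF1 they were ANAPC1, THAP12 and GTF2A1 (r = 0.998 each), and for TEP1 CRY1 (0.990), TOPORS (0.989) and STMP1 (0.986). For WRAP53 they were SF3B3 (r = 0.992), TUBB6 (0.987) and PRPF4 (0.980). COTL1 illustrates the pattern of NHP2, at 161, 159.9 and 120.4 FPKM in R, TR and GR, against 75.7, 86.4 and 115 FPKM in T, G and Control, and TUBB6 that of WRAP53, at 28.9, 46.8 and 73.9 FPKM in R, TR and GR, against 36.1, 67.3 and 120.0 FPKM in T, G and Control.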

How the data were processed

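RNA of 6 libraries was captured with oligo(dT) beads and made into dUTP-marked paired-end libraries, per the labels' protocols. Tools listed in the submitters' processing notes, with no role, are HISAT2 2.2.1, StringTie 2.1.6, cutadapt 1.9, edgeR and DESeq2. The build of the reads is not given in the sources used. Gene coordinates are those of the table, and promoters come from RefSeq on GRCh38.p14. The deposited table holds whole-number counts and FPKM values, both as the authors made them, per the file headers. Log2 ratios of FPKM + 1 were taken for pairs, over genes reaching 1 FPKM in any library. An additive model (oligo none, T or G, and R) was used to model the counts in edgeR 4.0.16 (TMM, filterByExpr, quasi-likelihood test, Benjamini-Hochberg, threshold 0.05) in R 4.3.3, and SEs were taken as the fold change over the root of F. DESeq2 1.42.0 was an alternative. The steps were tested on simulated data. Intervals are 95% exact Poisson intervals and cover counting error only. Listed genes are the members, the 3 largest coefficients and any call of each list, and the 3 most alike genes per member. MYC was added after the data were seen. Members and lists were chosen with earlier results of these data known. One result is not reported here.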

Additional observations from a re-analysis of the deposited data

Results flagged for a closer look

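With 1 library per group, opposite directions in different backgrounds, each beyond counting error, were looked for, and these differences were not tested. For R, WRAP53 had log2 ratios of FPKM + 1 of -1.01 in R against Control, 0.15 in TR against T and 0.24 in GR against G, and NOP10 had -0.0904, 0.25 and 0.18. For T, the ratios in T against Control and TR against R were -0.90 and 0.25 for WRAP53, 0.34 and -0.0574 for DKC1 and 0.23 and -0.17 for NAF1. For G, the ratios in G against Control and GR against R were -0.52 and 0.73 for WRAP53, -0.17 and 0.21 for DKC1 and -0.16 and 0.25 for GAR1. With median-ratio scaling the opposites of DKC1 and GAR1 for G and of NOP10 for R were absent (DKC1 -0.11 and GAR1 -0.05 in GR against R, NOP10 0.12 in R against Control). With the GC and length trend removed WRAP53 was at -0.13 in TR against T, 0.03 in GR against G and 0.05 in TR against R. The 3 entries of WRAP53 share the Control library, its highest.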

How the results depend on the processing

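No paired analysis was possible because each group has 1 library, all numbered 1, so a replicate block would be constant; the additive fit and the 3 pairs compare R within each oligo background instead. DESeq2 called 2 of the 8 genes for R, and no other alternative fit called any of the 8 for R, T or G. The fold changes of TERT ran from -1.24 to -0.74 over the 11 alternative fits for R, those of NHP2 from 0.48 to 0.94 those of NAF1 from -0.97 to -0.33, those of DKC1 from -0.55 to -0.10, those of GAR1 from -0.60 to -0.29, those of TEP1 from -0.45 to -0.15 and those of NOP10 from 0.19 to 0.43. For R, T and G, where the additive edgeR fit called 523, 1 and 7 genes, DESeq2 called 3664, 25 and 413 genes, the fit with no filter on low counts called 24, 0 and 0, and the fit with the source-name cell line as a term called 82, 42 and 354. Leaving out 1 library gave 66 to 2231 genes for R (without Control 66, TR 68, T 72, R 147, GR 2031 and G 2231), 2 to 50 for T and 12 to 337 for G. The cause was not tested. Reversed with the cell line as a term were WRAP53 for R (0.38) and G (0.16) and TERT for G (-0.13). Reversed with 1 library left out were WRAP53 for R (-0.37 to 0.46, above 0 without Control and without R), for T (-1.32 to 0.26, above 0 without Control) and for G (-0.90 to 0.66, above 0 without Control and, at 0.16, without G), DKC1 for T (-0.21 to 0.25, below 0 without T), NAF1 for T (-0.47 to 0.21, above 0 without TR) and for G (-0.12 to 0.51, below 0 without GR), TERT for G (-0.13 to 0.37, below 0 without G) and TEP1 for G (-0.0769 to 0.23, below 0 without GR). Members past 2-fold numbered 1 in T against Control with a pseudocount of 0.1 or median-ratio scaling, in place of 0, and 1 in TR against Control and GR against G with a pseudocount of 0.1. In R against Control there were 0 with median-ratio scaling or the GC and length trend removed, in place of 1. In TR against T there were 2 with a pseudocount of 0.1 or without mitochondrial genes in the total, in place of 1. At 1.5-fold there were 1 in T against Control, 3 in R against Control, 4 in TR against Control, 4 in TR against T, 1 in GR against G and 1 in GR against R. No share of all genes is given under these alternative settings. These counts therefore do not say whether the members differ from genes in general.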
